A study of Mus musculus with 118 samples.

Results

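The LIM homeobox genes encode transcription factors that carry a pair of LIM domains, zinc-binding modules that bind other proteins, and a homeodomain that binds DNA. Occupancy by Polycomb complexes was described for 10 of them, Lhx1, Lhx2, Lhx3, Lhx4, Lhx5, Lhx6, Lhx8, Lhx9, Isl1 and Lmx1b, among 26182 mouse genes with a curated RefSeq transcription start site (TSS). The genes were chosen by name, and a gene was counted as occupied when a peak overlapped a promoter, defined as a curated TSS plus or minus 2500 bp. Isl2 and Lmx1a, which belong to the same family, are given beside them.

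The series holds 118 calibrated ChIP-seq samples in 42 groups from mouse embryonic stem cells (ESCs). The peaks of RING1B, SUZ12 and PCGF2 were all called in untreated cells, with no tamoxifen, of lines on the E14 background. The authors also filtered the RING1B list, keeping peaks that lost signal on tamoxifen in PRC1CKO cells. PRC1CPM cells, clone 41, were Ring1aI50A/D53K with Ring1b(WT->I53A/D56K)fl/fl and Rosa26::ERT2-Cre, so that RING1A is already mutant while RING1B is still wild type without tamoxifen. PRC1CKO cells, clone B9, were Ring1a-/- with Ring1bfl/fl and Rosa26::ERT2-Cre. Neither line therefore has catalytically active RING1A, each is 1 clone, and the recombinase is expressed from the ubiquitous Rosa26 locus in both. Each antibody was used on 3 PRC1CPM samples, and that against SUZ12 on 3 samples of PRC1CKO as well, with human HEK293T cells as the spike-in. The lists hold positions only and combine samples, so no level, no spread between replicates and no effect of PRC1 catalysis could be measured, and the ESC label could not be checked against expressed markers.

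PRC1, a Polycomb repressive complex, monoubiquitylates histone H2A through its catalytic subunit RING1B or RING1A. PCGF2 belongs to canonical PRC1, which binds the H3K27me3 mark, and SUZ12 is a core subunit of PRC2, which deposits that mark. Polycomb complexes bind at CpG islands, and in ESCs they occupy many genes for developmental transcription factors. LIM homeodomain factors specify neurons, the pituitary, limb, eye, kidney, heart and gonad, and act through cofactors such as LDB1 that bridge their LIM domains.

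All 10 genes carried RING1B, SUZ12 and PCGF2 at a promoter. Over all 26182 genes the shares were 53.2% for RING1B, 24.8% for SUZ12, 13.5% for PCGF2 and 13.4% for the 3 lists together. These 26182 genes include non-coding RNA genes, whereas the 10 are all protein-coding. The peaks were also long. Each of the 10 genes had a peak of at least 8 kb in every list, whereas a peak of that length lay at a promoter of 3.4% of genes for RING1B, 3.4% for SUZ12 and 1.84% for PCGF2, and of 1.82% for the 3 lists together. Isl2 and Lmx1a were occupied in the same way. The genes and the 8 kb limit were chosen with earlier results of these data known, and the shortest of these peaks, PCGF2 at Lhx3, was 8827 bp. The contrast at 8 kb is therefore only a description. None of these counts was tested, because a list has no replicates and the members are not samples of a condition.

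The promoters themselves differed widely in sequence. The 250 bases before a TSS are shown for Lhx2 and Lhx3, the genes with the longest and the shortest RING1B peak, at each of their curated TSSs, and for Isl1 and Lhx8, which were picked after the CpG counts were known. They come from the RefSeq promoter table (GRCm38.p6, the assembly of mm10), in which 9 of the 10 genes, all but Lhx5, were matched, at 13 TSSs. CpG dinucleotides are in capitals, and each sequence reads 5′ to 3′ along the gene's strand.
Lhx2, first TSS, chr2:38339031-38339280, plus strand: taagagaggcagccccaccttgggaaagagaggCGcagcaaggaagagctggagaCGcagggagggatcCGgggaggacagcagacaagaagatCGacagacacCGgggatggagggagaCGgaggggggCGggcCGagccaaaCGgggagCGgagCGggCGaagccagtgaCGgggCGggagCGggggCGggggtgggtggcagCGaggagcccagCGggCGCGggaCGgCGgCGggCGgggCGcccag
Lhx2, second TSS, chr2:38351058-38351307, plus strand: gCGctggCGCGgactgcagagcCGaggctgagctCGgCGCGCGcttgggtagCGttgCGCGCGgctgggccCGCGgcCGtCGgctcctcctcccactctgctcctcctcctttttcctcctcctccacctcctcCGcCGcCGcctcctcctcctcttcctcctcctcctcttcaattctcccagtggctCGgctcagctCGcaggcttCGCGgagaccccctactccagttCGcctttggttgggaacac
Lhx3, first TSS, chr2:26208250-26208499, minus strand: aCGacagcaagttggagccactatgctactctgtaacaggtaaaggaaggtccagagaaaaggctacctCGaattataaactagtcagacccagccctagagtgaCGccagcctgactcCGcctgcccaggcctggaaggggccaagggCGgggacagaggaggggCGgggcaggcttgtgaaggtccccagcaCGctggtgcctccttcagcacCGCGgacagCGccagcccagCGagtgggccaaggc
Lhx3, second TSS, chr2:26206576-26206825, minus strand: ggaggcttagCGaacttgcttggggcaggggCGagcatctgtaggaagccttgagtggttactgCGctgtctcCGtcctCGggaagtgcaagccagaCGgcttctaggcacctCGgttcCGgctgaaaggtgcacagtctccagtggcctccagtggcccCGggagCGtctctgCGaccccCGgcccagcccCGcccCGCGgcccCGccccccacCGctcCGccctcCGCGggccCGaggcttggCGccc
Isl1, chr13:116309689-116309938, minus strand: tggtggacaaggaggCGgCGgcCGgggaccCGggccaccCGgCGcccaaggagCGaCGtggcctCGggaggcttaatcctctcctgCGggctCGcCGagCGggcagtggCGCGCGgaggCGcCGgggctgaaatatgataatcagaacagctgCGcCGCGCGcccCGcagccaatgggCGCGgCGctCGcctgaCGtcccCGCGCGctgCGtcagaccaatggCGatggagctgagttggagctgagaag
Lhx8, chr3:154330561-154330810, minus strand: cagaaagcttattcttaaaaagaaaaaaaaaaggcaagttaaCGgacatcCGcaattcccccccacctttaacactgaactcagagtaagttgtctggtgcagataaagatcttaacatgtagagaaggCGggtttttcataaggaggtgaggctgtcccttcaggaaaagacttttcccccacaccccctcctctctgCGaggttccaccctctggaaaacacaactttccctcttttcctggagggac

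The upstream window of Isl1 held 33 CpGs, a number that 4.03% of the 32851 promoters in the table reached. The Lhx8 window held 4, a number that 62.2% of promoters reached, and the window of the second Lhx9 TSS also held 4. The windows of Lhx2 held 25 and 24 CpGs, and those of Lhx3 held 11 at the first TSS and 22 at the second. Over the 13 windows the median was 17 CpGs, against 6 over all promoters. So Lhx8, with few CpGs just before its start, and Isl1, with many, both lay under peaks of all 3 lists.

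The domains were next placed against the gene structures, taking the genes by subfamily. Widths in bp are those of the authors' peak calls, and the main peak is the longest at a promoter. Each list was called by its own rules, so a difference in width between lists can reflect the calling as well as the occupancy.

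**Figure D1:**
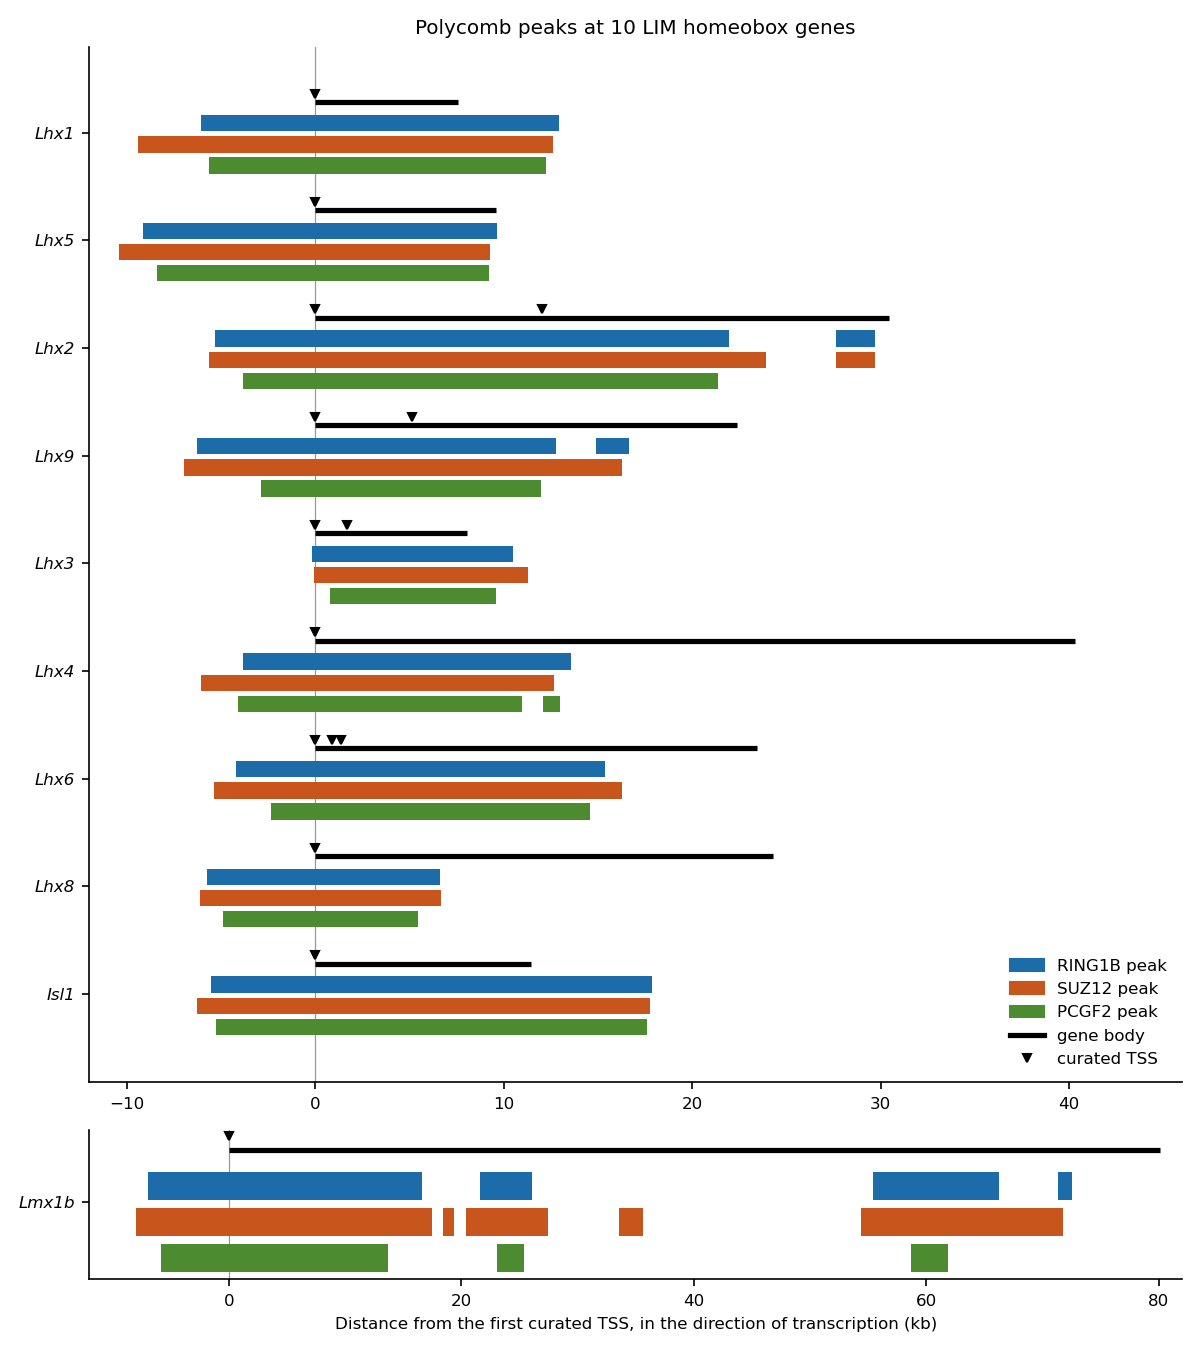
Peaks of RING1B, SUZ12 and PCGF2 at the 10 LIM homeobox genes, drawn to scale by distance in kb from the first curated TSS in the direction of transcription, with the gene body as a black line and curated TSSs as triangles. Lmx1b has a panel of its own with a longer axis. The main peaks cover the first TSS of each gene, except that PCGF2 at Lhx3 begins 763 bp downstream of it, and Lmx1b carries further peaks inside the gene.

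Lhx1 and Lhx5 form the subfamily needed in the head organizer and forebrain, and Lhx1 also in the kidney. At Lhx1 (chromosome 11, gene body from 84517975 to 84525534, minus strand) the RING1B peak ran from 84512585 to 84531601, or 19017 bp, the SUZ12 peak was 22027 bp and the PCGF2 peak 17888 bp. All 3 peaks held the whole 7560 bp gene, exons and introns alike. They reached past its end as far as the TSS of Aatf, a gene for a nuclear factor that counters apoptosis, 12033 bp away on the same strand. The RING1B peak ended 916 bp beyond that start, on the Aatf side. A further RING1B peak of 1853 bp stood 665 bp upstream of the main RING1B peak and outside the promoter window.

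At Lhx5 (chromosome 5, 120431886 to 120441457, plus strand) the RING1B peak from 120422712 to 120441504 was 18793 bp long. The SUZ12 peak was 19703 bp and the PCGF2 peak 17589 bp. RING1B held the whole 9572 bp gene, SUZ12 97.0% of it and PCGF2 96.0%, and both latter peaks stopped inside the last part of the gene. The Lhx5 peak of RING1B was the most evenly placed of the 10 about the first TSS, with 9174 bp of RING1B upstream and 9618 bp downstream. For peaks as called, Lhx1 and Lhx5 had the closest RING1B lengths of the paralogue pairs examined, with a ratio of 1.01.

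Lhx2 and Lhx9 act in the eye, forebrain and hair follicle (Lhx2) and in the early gonad (Lhx9). Lhx2 (chromosome 2, 38339281 to 38369737, plus strand) had the longest domain of the 10 in every list. Its RING1B peak from 38333975 to 38361244 was 27270 bp, 38th of the 18643 peaks in the RING1B list by length. The SUZ12 peak was 29601 bp and the PCGF2 peak 25253 bp, ranked 27th and 22nd in their lists. The curated TSSs of Lhx2 lie 12027 bp apart, and 1 peak of each list covered both. Near the 3′ end of the gene, beyond an intronic interval of 5658 bp without RING1B, RING1B and SUZ12 each had another peak, of 2104 and 2066 bp, where PCGF2 had none.

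At Lhx9 (chromosome 1, 138825186 to 138847579, minus strand) the main RING1B peak was 19072 bp and the PCGF2 peak 14876 bp, while SUZ12 ran unbroken for 23203 bp. SUZ12 was here 122% of the RING1B width, the highest ratio of the 10, and PCGF2 was 78.0% of it, the lowest. A second RING1B peak of 1763 bp lay downstream, and the 2113 bp between the RING1B peaks were wholly under SUZ12. That interval had a CpG observed/expected ratio, the CpG count relative to that given by the C and G content, of 0.159. The curated TSSs of Lhx9 lie 5135 bp apart, and both were under peaks of all 3 lists.

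Lhx3 and Lhx4 are needed for the pituitary and for motor neurons. Lhx3 (chromosome 2, 26200212 to 26208249, minus strand) had the shortest main peak in every list, with 10646 bp of RING1B, 11376 bp of SUZ12 and 8827 bp of PCGF2. A further RING1B peak of 1347 bp stood 783 bp downstream of the main one. Joined, these RING1B peaks would be longer than the 12360 bp peak of Lhx8. The main peaks of Lhx3 were also the least symmetric. RING1B reached 181 bp and SUZ12 71 bp upstream of the first TSS, whereas downstream they reached 10464 and 11304 bp. PCGF2 did not reach the first TSS at all and began 763 bp downstream of it, so that it covered only the second, 1674 bp further along. The Lhx3 window printed above for the first TSS, with 11 CpGs, was only partly under RING1B and SUZ12 and outside PCGF2, while that for the second TSS, with 22 CpGs, was under all 3. RING1B and SUZ12 nonetheless covered the whole gene body of Lhx3, and PCGF2 90.5% of it.

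Lhx4 (chromosome 1, 155701692 to 155742027, minus strand) is a longer gene, of 40336 bp, and its domain ended within it. The RING1B peak was 17407 bp, the SUZ12 peak 18745 bp and the main PCGF2 peak 15080 bp. RING1B covered 33.7% of the gene body, SUZ12 31.4% and PCGF2 29.5%. Of the exon bases, 12.2% were under each of the 3 lists. PCGF2 was split by a gap of 1105 bp, with a fragment of 935 bp beyond it. The gap lay wholly in an intron and wholly under RING1B and SUZ12, and held 6 CpGs, with an observed/expected ratio of 0.104. Its middle 250 bases are shown because they have no CpG, so no letter is in capitals.
Lhx4, middle of the PCGF2 gap, chr1:155730396-155730645, minus strand: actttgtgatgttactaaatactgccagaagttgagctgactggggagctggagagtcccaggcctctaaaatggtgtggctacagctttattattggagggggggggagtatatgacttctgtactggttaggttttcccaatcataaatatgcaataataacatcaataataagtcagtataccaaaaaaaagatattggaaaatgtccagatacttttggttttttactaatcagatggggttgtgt

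Lhx6 and Lhx8 act in forebrain neurons born in the ventral telencephalon, Lhx6 in cortical interneurons and Lhx8 in cholinergic neurons. At Lhx6 (chromosome 2, 36081953 to 36105408, minus strand) the peaks were 19585 bp for RING1B, 21703 bp for SUZ12 and 16939 bp for PCGF2. They covered the 3 curated TSSs, which lie within 1348 bp, and between 62.2% and 69.5% of the gene body. Only 41.9% of the Lhx6 exon bases were under each list, against 70.1% of its intron bases for RING1B. Lhx8 (chromosome 3, 154306293 to 154330560, minus strand) had the second shortest main peak in each list, of 12360, 12804 and 10368 bp in the same order. Of the 10 genes Lhx8 had the smallest share of its body under each list, 27.2% for RING1B, 27.6% for SUZ12 and 22.5% for PCGF2. No other peak of any list lay within 100 kb of Lhx8.

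Isl1 marks motor neurons, the second heart field and pancreatic islets. At Isl1 (chromosome 13, 116298270 to 116309688, minus strand) the 3 peaks were nearly of a length, with 23409 bp of RING1B, 24073 bp of SUZ12 and 22881 bp of PCGF2. PCGF2 was 97.7% of the RING1B width, the highest ratio of the 10. The whole gene was under every list. The next RING1B peak was 388870 bp away, the farthest of the 10, and no other peak of any list lay within 100 kb. Its paralogue Isl2 (chromosome 9) had 13813, 14483 and 11822 bp, and its whole body was covered too.

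Lmx1b specifies dorsal limb and serotonergic neurons and is needed in the kidney glomerulus. Lmx1b (chromosome 2, 33560965 to 33641098, minus strand) is the longest of the 10 genes, at 80134 bp, and had a main domain of 23573 bp of RING1B, 25504 bp of SUZ12 and 19509 bp of PCGF2. It was the only one of the 10 with several sites of all 3 lists inside the gene. The nearest internal site, from 33614977 to 33619495, had 4519 bp of RING1B, with SUZ12 of 7044 bp and PCGF2 of 2328 bp. A deeper site, from 33574882 to 33585715, had 10834 bp of RING1B, with SUZ12 of 17394 bp and PCGF2 of 3207 bp. The deeper RING1B peak was longer than 98.1% of the RING1B list, although no curated TSS lies there. A TSS of a predicted RefSeq transcript, at 33584293, falls within the deeper site and was under RING1B and SUZ12 and outside PCGF2. Over the gene body the shares were 41.5% for RING1B, 56.2% for SUZ12 and 24.0% for PCGF2.

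Lmx1a (chromosome 1), which acts in the roof plate and in midbrain dopaminergic neurons, had 10172, 11236 and 8477 bp at its promoter. It also had 1 internal site of all 3 lists, with 2082 bp of RING1B beginning 112540 bp downstream of its TSS. The ratio of RING1B lengths was 2.32 between Lmx1b and Lmx1a, 1.69 between Isl1 and Isl2, 1.64 between Lhx4 and Lhx3, 1.58 between Lhx6 and Lhx8, and 1.43 between Lhx2 and Lhx9. With Lhx1 and Lhx5 included, the median over the 6 paralogue pairs was 1.61, against 1.39 over all 66 pairs of the same genes. The 66 pairs include the 6 paralogue pairs. By these medians, for peaks as called, paralogues were thus no closer in domain length than the pairs as a whole.

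The lengths were then set beside those of all genes with a peak of the same list at a promoter. The median over the 10 genes was 19044.5 bp for RING1B, with a range from 10646 to 27270 bp, against 1846.5 bp over 13922 genes. For SUZ12 it was 21865 bp, against 3301 bp over 6487 genes. For PCGF2 it was 17264 bp, against 2928 bp over 3522 genes. Even Lhx3, with the shortest promoter peaks of the 10 as called, had a length that only 4.35% of genes with RING1B reached, 8.48% of genes with SUZ12 and 12.7% of genes with PCGF2. The order of the genes was much alike in the 3 lists. Across the 10 genes RING1B length had a Pearson r of 0.980 and a Spearman rho of 0.964 with SUZ12 length, and of 0.972 and 0.855 with PCGF2 length, given as a description, without a test, of lists that share the PRC1CPM line. Since the lists have no spread, neighbours in the order, such as Lhx1 at 19017 bp and Lhx9 at 19072 bp of RING1B, cannot be separated.

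**Figure D2:**
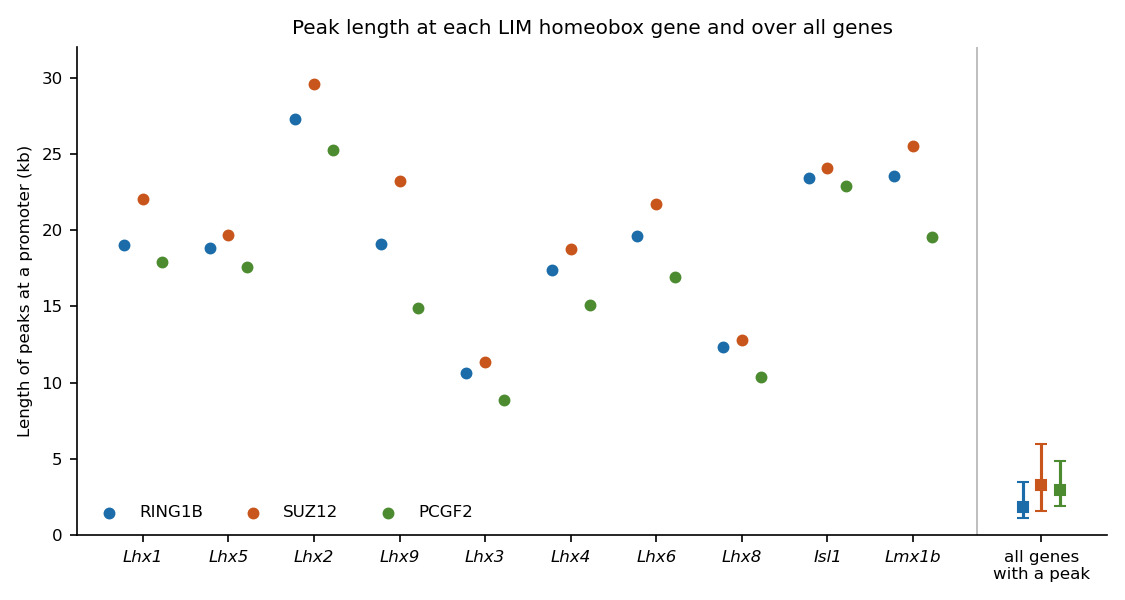
Length in kb of the peaks at a promoter for each of the 10 genes (1 point per list) and, at the right, the median over all genes with a peak of that list, with bars from the lower to the upper quartile. The shortest RING1B length among the 10, 10646 bp at Lhx3, lies above the upper quartile of 3498 bp over all genes. For peaks as called, SUZ12 is the longest list at each of the 10.

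To set them beside genes with long domains, the 10 genes were also compared with the 477 genes that have peaks of at least 8 kb in all 3 lists, which share 284 RING1B peaks of that length among them. The 477 include the 10 genes themselves, non-coding RNA genes and neighbours under the same peaks, such as Aatf beside Lhx1. A domain can therefore be counted more than once. The SUZ12 peak was wider than the RING1B peak at 10 of 10, against 69.0% of the 477. This count holds for peaks as called, without joining close ones. At Lhx3 another RING1B peak, of 1347 bp, lay 783 bp from the main one, and joining them would make RING1B the wider. The same holds at Lhx9 when RING1B peaks within 3 kb are joined. SUZ12 was 108% of the RING1B width at the median, with a range from 103% to 122%, against 102%. At 5 of 10 the SUZ12 peak passed RING1B at both edges (Lhx2, Lhx6, Lhx8, Lhx9 and Lmx1b), against 35.6% of the 477. The PCGF2 peak was narrower than RING1B at 10 of 10, which 99.4% of the 477 genes also showed, and its median share of the RING1B width, 86.6%, was close to the 85.8% over the 477. It lay within the RING1B peak at both edges at every gene except Lhx4, where it passed the upstream edge by 295 bp, and within the SUZ12 peak at 10 of 10, against 79.2% of the 477.

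The RING1B peak reached further downstream than upstream of the first TSS at 10 of 10 genes, against 59.7% of the 477. In that share a gene starting on the other strand under the same peak, such as Lhx1os, can count the opposite way. The median reach was 5655 bp upstream and 13262.5 bp downstream, against 8454 and 10346 bp over the 477. The SUZ12 peak of Lhx5 went the other way, with 10419 bp upstream and 9283 bp downstream. Of the 15 curated TSSs of the 10 genes, 15 were under RING1B, 15 under SUZ12 and 14 under PCGF2, the exception being the first TSS of Lhx3. Over the 3508 genes with all 3 lists at a promoter, 88.7% of 4766 TSSs were under RING1B, 83.2% under SUZ12 and 78.0% under PCGF2. Predicted RefSeq transcripts add 24 TSSs to the 10 genes, of which 23 were under RING1B. The exception, 9699 bp upstream of the Lhx4 TSS, was outside all 3 lists.

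The share of the gene body under a list followed gene length. The bodies of Lhx1, Lhx3, Lhx5 and Isl1, the shortest of the 10, were wholly under RING1B. That is 4 of 10, against 58.9% of the 477 genes with long domains, whose median body was 7254 bp, against 22925 bp for the 10. For PCGF2 it was 2 of 10, Lhx1 and Isl1, against 52.6%. Whole-body cover was thus less common here than at those genes, which include non-coding ones and were not matched for body length. The median share over the 10 was 72.2% for RING1B, 79.0% for SUZ12 and 66.2% for PCGF2. Over genes with a promoter peak of the list these medians were 4.60%, 5.77% and 5.17%. Across the 10 genes the RING1B share had a Pearson r of -0.684 and a Spearman rho of -0.807 with body length, which enters the share itself. At 4 of the 10 genes a curated TSS on the other strand lay within 1000 bp upstream, in each case of a long non-coding RNA. These were Lhx1os at Lhx1, Gm27199 at Lhx5, AI606473 at Lhx8 and C130021I20Rik at Lmx1b, at 95 to 261 bp from the TSS of the gene. Their starts were all under the 3 lists, and such an arrangement was found at 16.1% of the 477 genes and 11.9% of all genes.

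Within the domains the lists were nested. Of the bases under PCGF2 at the 10 genes, 99.8% were within SUZ12 and 99.8% within RING1B, against 98.1% and 99.5% over the whole PCGF2 list. Of the SUZ12 bases, 88.3% were within RING1B, against 85.9% of the SUZ12 list. The RING1B bases differed more from their list. At the 10 genes 98.6% of them were within SUZ12 and 82.9% within PCGF2, against 56.8% and 32.4% over the whole RING1B list. That list holds 18643 peaks, against 7438 for SUZ12 and 3680 for PCGF2, whereas the 10 genes all carry the 3 lists. No share was computed over sites with all 3 lists, so this contrast also counts the presence of SUZ12 and PCGF2.

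CpG content fell from the part under all 3 lists to the edges. The observed/expected ratio under all 3 lists ranged from 0.401 at Lhx6 to 0.546 at Lhx8, with a median of 0.429, against a median of 0.501 over 281 RING1B peaks of the 477 genes. In the parts under RING1B or SUZ12 but not PCGF2 it ranged from 0.172 to 0.310, with a median of 0.231. The lowest value under all 3 lists was thus above the highest outside PCGF2. In the 10 kb on either side, away from any peak, the median was 0.186. The parts under SUZ12 only, which make up some of the second class, had a median of 0.192, close to that of the surrounding sequence. RING1B peaks away from the promoter window and gene body were not taken out of this part. At Lhx1 it therefore includes the further RING1B peak of 1853 bp, and at Lhx3 the end of another. The part of CpG content in the calling of peaks was not tested.

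**Figure D3:**
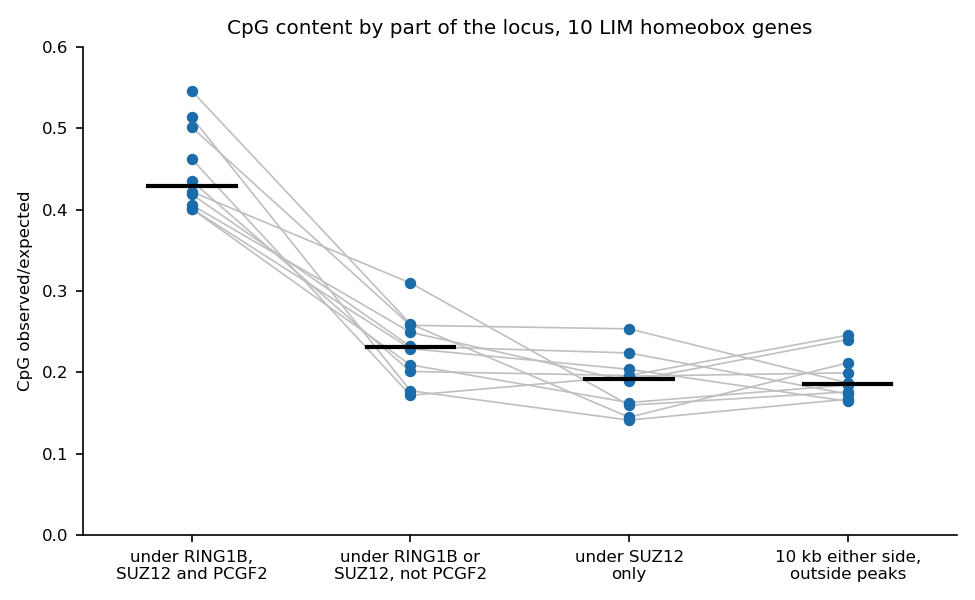
CpG observed/expected ratio in 4 parts of each locus, with 1 point per gene, grey lines joining the parts of a gene and black bars for the median over the 10 genes. All 10 values under the 3 lists, from 0.401 upwards, lie above all values in the other parts. At Lhx1 and Lhx3 the part under SUZ12 only includes bases of a RING1B peak outside the promoter window and gene body.

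CpG islands were found as stretches of at least 200 bp with at least 50% GC and an observed/expected ratio of at least 0.6. The genome held 160828 by this definition. In the bodies of the 10 genes and 10 kb around them there were 118, of which 84 lay wholly under all 3 lists. The number of islands was not compared with that at other genes. Of the island bases at the 10 genes, 91.2% were under RING1B, 90.7% under SUZ12 and 87.0% under PCGF2. Over the genes with a promoter peak of the list, counted in the same way, the shares were 47.0%, 40.6% and 44.1%. Peaks at those genes were much shorter, with a RING1B median of 1846.5 bp, so this contrast was not matched for peak length. At Lhx6 and Isl1 every island base was under every list. Lhx4 had the smallest share under RING1B, 79.6%, with 5 of its 11 islands touched by the peaks.

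Finally, other genes with LIM domains and the cofactors were examined, to see whether the pattern went with the LIM domain. The LIM-only genes, whose products have LIM domains but no homeodomain, had all 3 lists at a promoter at 4 of 4. Their median RING1B length was 9140.5 bp, with 14284 bp at Lmo4, 10880 bp at Lmo1, 7401 bp at Lmo2 and 1776 bp at Lmo3, and only Lmo4 had a peak of at least 8 kb in every list. Of 45 other genes for LIM domain proteins without a homeobox, mostly cytoskeletal or adhesion proteins, 37 had RING1B, 22 SUZ12 and 8 PCGF2. Over all genes, non-coding ones included, the shares were lower, at 53.2%, 24.8% and 13.5%, though little lower for PCGF2. The 37 genes with RING1B had a median RING1B length of 2098 bp, against 1846.5 bp over all genes with RING1B. Prickle1, a planar cell polarity gene, was the only one of the 45 with a peak of at least 8 kb for RING1B or SUZ12, and none had one for PCGF2.

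Of the cofactor genes, 4 of 6 had RING1B at a promoter, a share near the 53.2% over all genes. These were Ldb1, Ssbp2, Ssbp3 and Ssbp4, and not Ldb2 or Rlim. SUZ12 was at Ssbp2 and Ssbp3, and PCGF2 only at Ssbp2. Ldb1, which encodes the main LIM-binding cofactor, had 3331 bp of RING1B and neither SUZ12 nor PCGF2. No cofactor gene had a peak of at least 8 kb of any list. The genes outside the family nearest to the median of the 10 in the log2 lengths of the 3 lists, among 3027 protein-coding genes, were Msx1, Foxc2, Foxl1, Ebf3 and Neurog2, all of which encode developmental transcription factors. Foxc2 and Foxl1 share 1 peak of each list. Msx1, the nearest, had 19576 bp of RING1B, 21615 bp of SUZ12 and 17180 bp of PCGF2.

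**Figure D4:**
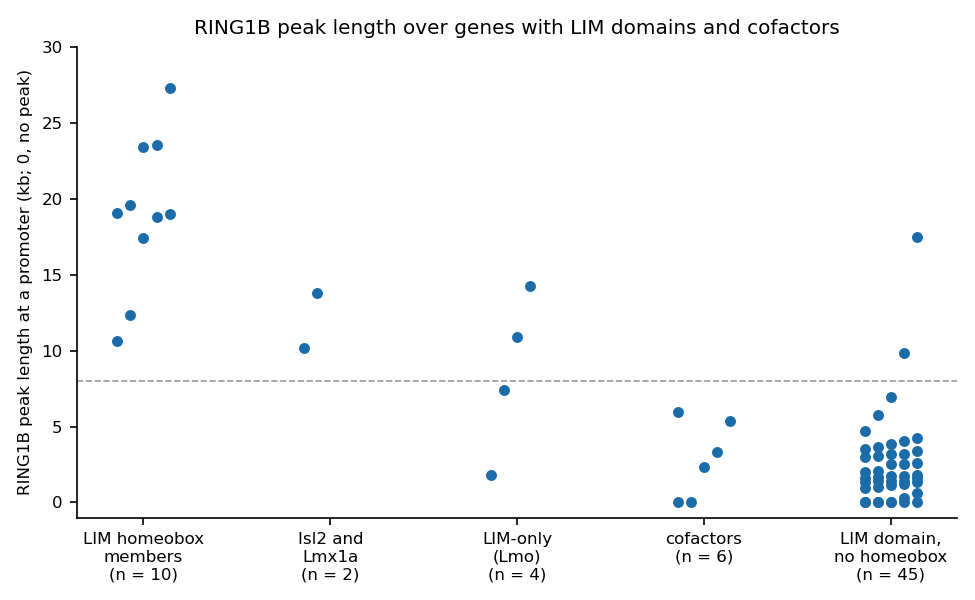
Summed length in kb of the RING1B peaks at a promoter, with 1 point per gene and 0 for no peak, for the 10 LIM homeobox genes, Isl2 and Lmx1a, the LIM-only genes, the cofactor genes and other LIM domain genes. The dashed line marks 8 kb. All 10 lie above it, and Crip1, at 9851 bp, passes it only by adding up several peaks.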

How the data were processed

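Calibrated ChIP-seq libraries of untreated ESCs were analysed through 3 peak lists. As deposited, each list gives the start and end of a peak in bp on mm10. Heights, p-values, replicates and read depth are not part of it, and library depths were not used here. The authors used Bowtie 2 for alignment to a combined mm10 and hg19 genome (the latter for the spike-in), Sambamba for duplicate removal, and MACS2 in broad mode, with Input as control, to call peaks, minus a custom blacklist. RING1B and SUZ12 peaks were called on merged replicates and kept when present in both PRC1CPM and PRC1CKO cells, and RING1B peaks also had to lose signal on tamoxifen in PRC1CKO cells, from data not analysed here. PCGF2 peaks had to be present in each PRC1CPM replicate. Different rules can change number and width.

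Here, peaks were compared with curated RefSeq TSSs and transcript spans of GRCm38.p6 on the assembled chromosomes. An overlap needed 1 bp. Lengths are the union of promoter peaks of a gene. Coordinates count from base 1. Counts and medians were set beside all genes, with no test. The interval code was tested on simulated data, with 0 of 1200 results mismatched, and 3 planted islands were all found. Python 3.11.15, NumPy 2.4.6 and matplotlib 3.10.9 were used. The genes, lists and the 8 kb limit were chosen with earlier results of these data known. All 10 members, the family members outside them, genes that were few with or without a factor, and the 5 genes nearest the members' median were named by rule. Alternatives changed the promoter window, overlap, peak width, merging, transcript set and island definition.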

Additional observations from a re-analysis of the deposited data

How the results depend on the processing

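A share over all genes counted as moved when it left its 95% Wilson interval, which is narrow with 26182 genes and covers counting error only, and a value over the 10 genes when it changed by more than 1.5 times, so the limits are not alike. By these limits 21 of 143 alternatives moved a value, all of them shares over all genes. Each gene kept all 3 lists at a promoter under every promoter window, overlap, peak and transcript setting run. The median length over the 10 genes stayed between 19044.5 and 20560 bp for RING1B and between 17264 and 17354.5 bp for PCGF2, and at 21865 bp for SUZ12. The order of lengths between genes and between lists was not rerun with peaks merged, and would change for RING1B at Lhx3, as described above. It would also change for RING1B at Lhx1, with another peak 665 bp away, and at Lhx9 with peaks within 3 kb joined. The share of CpG island bases at the 10 genes ranged from 90.7% to 97.8% for RING1B, from 90.7% to 97.0% for SUZ12 and from 86.5% to 95.5% for PCGF2, highest with the stricter definition of an island. Over all genes the share with RING1B was 51.1% with promoters of 500 bp on either side of the TSS, 51.7% with 1000 bp, 55.3% with 5000 bp, 50.6% with 500 bp of overlap required, 41.7% with peaks of at least 1 kb, 41.97% with predicted transcripts, 52.3% with the most 5′ TSS alone and 55.6% with gene bodies included. In that order SUZ12 gave 23.4%, 23.97%, 26.1%, 23.8%, 21.5%, 19.7%, 24.2% and 26.3%. PCGF2 gave 12.9% with 500 bp, 14.1% with 5000 bp, 12.9% with peaks of at least 1 kb, 10.8% with predicted transcripts and 14.3% with gene bodies. The predicted set changes which genes are counted as well as their TSSs, and the cause of these shifts was not tested. No paired analysis was possible because replicate values are absent from the peak lists, and for the same reason no replicate could be left out. Peak ends depend on the caller and on depth, which was not used here, so small differences in length between lists are not resolved here.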
